A study of Mus musculus with 5 samples.

Results

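The subject here is the set of 8mer seed sites in 3′UTRs that Ago HITS-CLIP listed in mouse liver at 5 stages of development. HITS-CLIP crosslinks Argonaute (Ago) to RNA with UV light in the tissue, immunoprecipitates it and sequences the RNA it held, so that miRNAs and the mRNA stretches bound with them are read from the same material. The members were chosen by 2 labels of the deposited tables of miRNA-target interactions, the seed type 8mer and an annotation that included 3′UTR, and no measured level entered the choice. They took up 74091 of 3254259 entries. After entries of the same position had been joined, 29105 distinct sites remained, of 357508 distinct 3′UTR sites of any seed type and 1578199 distinct sites in all regions.

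The libraries were made from livers of C57BL/6 mice, given as C57BL/6J in the study's methods. The embryonic stages were e12.5, then e15.5, then e18.5, the postnatal stages were P7 and adult, and the methods put the adults at 6 to 8 weeks. Where values are given for e12.5 and the later stages, they follow this order. A library here is the single table of a stage. The study speaks of biological replicates and names a second e18.5 sample, but neither labels nor tables say how these relate to the tables, so no replicate was analysed here as a sample of its own. Antibodies to Ago2 were used for all libraries, and one to Ago1 was added for P7 and the adult, so the antibodies and the step from embryonic to postnatal liver cannot be told apart. The 3 embryonic tables were each made of 2 lists of interactions that the labels do not describe, and these were added together.

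A miRNA guides Ago to an mRNA mainly through its seed, the bases that follow its first base. A 6mer pairs with the core of the seed, a 7mer-m8 adds a pair at the far end of it, a 7mer-A1 adds an A on the target opposite the first base of the miRNA, and an 8mer has both. The A is held by a pocket of the Ago protein and not by pairing. In transfection and knockout experiments the 8mer is on average the most effective of these site types, and sites in 3′UTRs act more strongly than those in coding sequence. Liver is a known place for miR-122, the leading miRNA of hepatocytes, while the fetal liver is a blood-forming organ, rich in miR-144 and miR-451a of red cell precursors and miR-142a of blood cells in general.

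The mature sequences below, from RefSeq on GRCm38.p6, are those of families to which the results return, with the seed (bases 2 to 8) in capitals. Every 8mer site of a family is the complement of these 7 bases followed by A. The families of miR-144-3p, miR-101a-3p and miR-101b-3p are shown together because their seeds share most of their bases, in shifted or slightly altered form.
miR-30a-5p: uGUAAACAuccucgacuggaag
let-7c-5p: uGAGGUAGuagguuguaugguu
miR-26a-5p: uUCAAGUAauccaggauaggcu
miR-16-5p: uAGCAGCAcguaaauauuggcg
miR-27b-3p: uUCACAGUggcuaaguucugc
miR-142a-3p: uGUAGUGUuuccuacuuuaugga
miR-144-3p: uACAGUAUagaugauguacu
miR-101a-3p: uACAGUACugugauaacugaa
miR-101b-3p: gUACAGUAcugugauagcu
miR-451a: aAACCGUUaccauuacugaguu
miR-194-5p: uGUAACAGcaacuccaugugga
miR-20a-5p: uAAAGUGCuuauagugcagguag
miR-92a-3p: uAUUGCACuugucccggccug
Of 995 listed miRNAs, 846 were found by name in the RefSeq table. In the genome sequence of GRCm38, 29105 of 29105 sites held exactly the 8 bases that their family requires.

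The number of distinct 8mer 3′UTR sites was 14336 at e12.5 and 5437, 4847, 10508 and 4763 at the later stages. They made up 8.24% (Wilson 95% interval 8.12 to 8.37) of the 3′UTR sites at e12.5 and 8.89% (8.67 to 9.12), 9.21% (8.96 to 9.46), 8.33% (8.17 to 8.48) and 8.24% (8.02 to 8.47) at the later stages. These intervals cover counting error only, and the 2 later embryonic libraries lay above the other 3. The sites fell in 25.3% to 29.1% of the clusters listed in 3′UTRs, and in 2631 to 5032 genes per library. The number of miRNAs for which sites were listed differed as well, from 585 in the adult to 745 at e12.5, and a library with more listed miRNAs can hold more sites. When the sites of the 100 most read miRNAs alone were counted, 8mers made up 11.8% at e12.5 and 13.0%, 15%, 13.4% and 13.2% at the later stages.

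Each site carries the read number of its cluster, so it measures Ago at a stretch of mRNA and not the share of 1 miRNA. The median was 35 reads at e12.5 and 39, 32, 18 and 26 at the later stages, with a lowest value of 5 in every library. Of the clusters with an 8mer, 14.7% to 20.1% held more than 1, which then share the same reads. The largest read numbers over all libraries lay on miRNA precursors and globin mRNAs, at e12.5 and P7. At e15.5, e18.5 and in the adult the highest lay away from miRNA genes, with 5632, 2808 and 7423 reads. In Vmp1, a gene of autophagy whose 3′ end overlaps the miR-21 precursor, clusters with 8mers reached 231741 reads at P7 and 129731 at e12.5. Outside such places the highest was Hbb-bs, a beta globin of red cells, with 43399 at e12.5. In all, 18 of the 29105 sites lay within 50 bases of a miRNA gene on either strand, and they held 34.2% of the summed reads over 8mer sites at P7 and 16.9% at e12.5, against 0.401% to 0.749% in the other 3 libraries. The named sites below include none of these 18.

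The seed families, each a set of miRNAs with the same bases 2 to 8, shared the sites very unevenly. Of 843 families, 830 had at least 1 8mer 3′UTR site, the median family had 21, and 53 families had 100 or more. The miR-30 family (miR-30a to miR-30e) had the most, with 411 distinct sites in 400 genes. It held 1.33% of all 8mer 3′UTR sites at e12.5 and 2.21%, 3.24%, 2.20% and 3.44% at the later stages, or between 120 sites at e15.5 and 231 at P7. The adult had 164, fewer than e12.5, so the higher share there came with a smaller total of sites, 4763 against 14336. After miR-30 came miR-27 with sites in 296 genes, miR-101b-3p with 238 distinct sites, miR-26 with 232 and miR-15/16 with 230. Then followed miR-152-3p, whose family includes miR-148a-3p and miR-148b-3p, then miR-19, miR-673-5p with 207, miR-23b-3p, let-7, miR-144-3p with 190 and miR-20a-5p with 186. Together these 12 families held 10.3% of the 8mer 3′UTR sites at e12.5 and 17.2%, 17.9%, 12.7% and 15.9% at the later stages.

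The families with most miRNA reads were only in part those with most sites. Of the 12 families that lead by sites, 5 were also among the 12 that lead by reads, namely let-7, miR-15/16, miR-26, miR-30 and miR-144-3p, and the 12 that lead by sites took up 26.1% to 51.7% of the miRNA reads of a library. The 12 families with most reads took up 72.1% to 81.3% of the miRNA reads of a library and held 6.67% to 12.7% of its 8mer 3′UTR sites. miR-142a-3p, a miRNA of blood cells, had 32.2% of all miRNA reads at e12.5 and 37.1%, 23.9%, 8.88% and 4.34% at the later stages. Its 8mer sites numbered 96, 50, 44, 56 and 12 in the same order, between 0.252% and 0.920% of the 8mers of a library. miR-451a had 6.98% of all miRNA reads at e12.5 and 20 sites, and 0.722% and 1 site in the adult. miR-126a-3p, a miRNA of endothelial cells whose seed holds a CpG, had 5.05% of the adult miRNA reads and 2 sites there, and none in the 3 embryonic libraries. At the other end, 46.2% to 62.1% of the 8mer 3′UTR sites of a library belonged to families with less than 0.01% of its miRNA reads. Only 7.76% of the sites at e12.5 and 13.3%, 14.6%, 12.1% and 15.2% at the later stages belonged to families with at least 1%.

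The shares of the families at the first and the last stage are given with the number of sites, since the total differed and a share can rise without more sites. In whole liver, fewer cells of a type and less RNA per cell cannot be told apart. let-7, a family that accumulates as tissues mature, had 2.45% of all miRNA reads at e12.5 and 22.4% in the adult, and its 8mers numbered 78 and 93, which is 0.544% (0.436 to 0.678) and 1.95% (1.60 to 2.39) of the sites. miR-122-5p had 1.44% and 11.2% of the miRNA reads, and 48 and 70 sites, 0.335% (0.253 to 0.444) and 1.47% (1.16 to 1.85). miR-194-5p had 0.652% and 10.01% of the miRNA reads, and 42 sites at both stages, 0.293% (0.217 to 0.396) and 0.882% (0.653 to 1.19). miR-144-3p had the opposite order, with 131 sites, 0.914% (0.771 to 1.08), at e12.5 and 23, 0.483% (0.322 to 0.724), in the adult. It was highest at e15.5 with 1.64%. A higher share in the adult was not particular to let-7, miR-122-5p and miR-194-5p. miR-26 had 0.684% and 1.83% of the sites. The family of miR-148a-3p, miR-148b-3p and miR-152-3p, with under 0.1% of all miRNA reads at both stages, had 0.760% and 1.32%. Each stage is 1 library, so these shares describe libraries and the spread between livers of a stage is not known. The families also differed in how many of their own 3′UTR sites were 8mers. The share was 40.3% to 49.1% for miR-30 and 19.2% to 29.1% for let-7, but 11.5% to 15.9% for miR-122-5p and 4% to 7.88% for miR-451a.

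**Figure D1:**
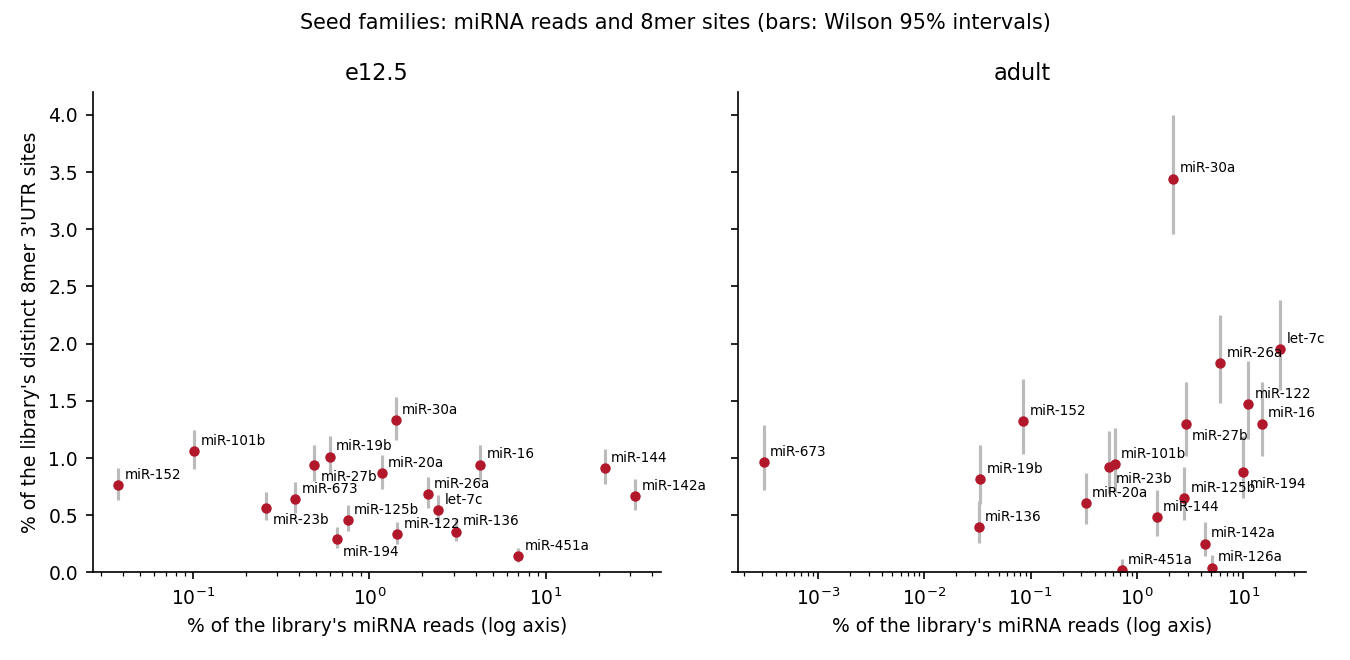
Share of the distinct 8mer 3′UTR sites held by each of 19 seed families (y axis, percent, bars are Wilson 95% intervals) against the family's share of the miRNA reads (x axis, percent, log axis) at e12.5 and in the adult; a family without a site is not drawn. miR-30 stands highest in both panels, at 1.33% and 3.44%, and at e12.5 miR-142a-3p lies farthest to the right at 0.670% of the sites while miR-451a is the lowest family drawn at 0.140%.

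The conservation score deposited for each site runs from 0 to 1, and the method behind it is not given in the sources used here. 8mers had the highest mean of the 4 seed types in every library. Their mean was 0.510 at e12.5 and 0.570, 0.532, 0.480 and 0.510 at the later stages. Against the 7mer-m8 sites of the same library the mean was higher by 0.0671 ± 0.0045 (SD, n = 5 libraries), against 7mer-A1 sites by 0.0451 ± 0.0092 and against 6mers by 0.0826 ± 0.0062. All 3 differences had the same sign in 5 of 5 libraries, and each was several times its SD over libraries. The exact two-sided sign permutation test gave p = 0.0625 for each, which is the smallest value that 5 libraries allow, so no comparison of this kind could pass 0.05. Adjusted over the 14 comparisons made in this way it remained 0.0625. The libraries share part of their sites, and 46.3% of the e15.5 8mers were also listed at e12.5. The 5 differences of such a comparison are thus not independent of each other. With only the 100 most read miRNAs the differences were larger, at 0.106, 0.108 and 0.160. Of the 8mers, 36.2% to 45.3% had a score of at least 0.9 and 32.2% to 41.2% one below 0.1, so that most sites lay near either end of the scale.

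Within a seed family, where the seed is the same, the 8mers were still more conserved. The differences were 0.0440 to 0.0762 against 7mer-m8, 0.0182 to 0.05 against 7mer-A1 and 0.0589 to 0.108 against 6mers, as means over 56 to 256 families per library. The excess was larger for miRNAs with more reads. For families with at least 1% of the miRNA reads, the 8mer mean was above the 6mer mean by 0.224 at e12.5 and 0.178, 0.192, 0.178 and 0.192 at the later stages. For families with less than 0.01%, it was above by 0.0447, 0.0392, 0.0203, 0.0403 and 0.0329. The 6mers themselves differed less between these classes, with means of 0.456 and 0.431 at e12.5 and 0.444 and 0.427 in the adult, whereas the 8mers stood at 0.680 and 0.475 at e12.5 and at 0.636 and 0.460 in the adult. The order of these 2 classes was the same in all 5 libraries, and it was not tested. Broadly conserved families were taken from a list of miRNA families shared by vertebrates. They were matched by miRNA number and most read arm, which gave 121 seed families and let in some other arms, such as miR-125b-2-3p. Their 8mers had a mean score higher by 0.148 ± 0.0146 (SD, n = 5 libraries) than the 8mers of other miRNAs, in 5 of 5 libraries (exact two-sided sign permutation test, p = 0.0625).

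The families stood apart from each other in this score. Over the distinct sites of all libraries the mean was 0.754 for miR-20a-5p, 0.731 for miR-19, 0.720 for let-7, 0.720 for miR-30 and 0.699 for miR-26. It was 0.357 for miR-122-5p, 0.401 for miR-194-5p and 0.320 for miR-451a, which were among the families with most miRNA reads. Sites in coding sequence had higher scores than those in 3′UTRs. 8mers annotated to 3′UTR and not to coding sequence had a mean of 0.456 at e12.5 and 0.436 in the adult, against 0.824 and 0.771 for 8mers annotated to coding sequence alone. The difference was -0.334 ± 0.033 (SD, n = 5 libraries), in 5 of 5 libraries (exact two-sided sign permutation test, p = 0.0625). Of the 8mer 3′UTR sites, 12.4% to 18.6% were also annotated to coding sequence.

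**Figure D2:**
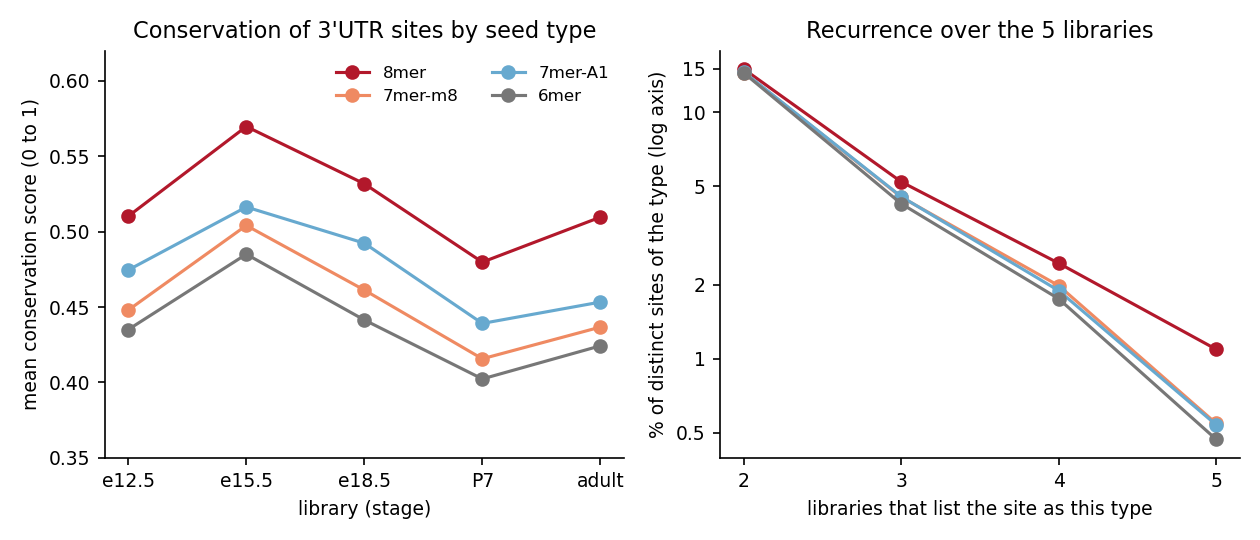
Left, mean conservation score (0 to 1, the axis does not begin at 0) of distinct 3′UTR sites of the 4 seed types in each library. Right, percent (log axis) of the distinct sites of each type that 2, 3, 4 or 5 libraries listed as that type. The 8mers lie highest in all 5 libraries on the left, between 0.480 and 0.570, and reach 1.09% in 5 libraries on the right, against 0.471% of 6mers.

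The bases around the sites were slightly richer in A and U for 8mers. In the 15 bases on either side, the share of A and U was 53.2% at e12.5 and 55.7%, 53.8%, 51.9% and 52.2% at the later stages. It was above that of 7mer-m8 sites by 2.07 ± 0.16 percentage points (SD, n = 5 libraries), of 6mers by 2.06 ± 0.19 and of 7mer-A1 sites by 0.586 ± 0.202, each in 5 of 5 libraries (exact two-sided sign permutation test, p = 0.0625). The duplex free energy given for each entry had a mean of -12.2 kcal/mol at e12.5 and -11.4, -11.7, -12.4 and -12.3 at the later stages, if the unit is the usual one of folding programs, which the tables do not name. It differed from that of 6mers by -1.87 ± 0.13 (SD, n = 5 libraries) and from that of 7mer-A1 sites by -1.90 ± 0.10, a more stable pairing, which the additional base pair of the 8mer gives by construction. Against 7mer-m8 sites, which have the same pairs over bases 2 to 8, the difference was 0.362 ± 0.055, but within seed families it was -0.0531, so the first difference did not hold when seeds were matched. Whether the energy counts a pair at base 1 of the miRNA is not stated. Within families the A and U excess over 7mer-A1 sites was 0.388 ± 0.461 percentage points and no longer had the same sign in all 5 libraries (exact two-sided sign permutation test, p = 0.125). The log2 cluster reads of 8mers were above those of 7mer-m8 sites by 0.09 ± 0.01, of 6mers by 0.09 ± 0.01 and of 7mer-A1 sites by 0.05 ± 0.02, in 5 of 5 libraries (exact two-sided sign permutation test, p = 0.0625). This was a small difference beside the SD of 1.33 to 1.89 among the 8mers of a library. Within seed families it was 0.05 ± 0.04, 0.06 ± 0.04 and 0.01 ± 0.02 in the same order, and the last did not have the same sign in all 5 libraries (exact two-sided sign permutation test, p = 0.1875).

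Most 8mer sites were listed in a single library. Of the 29105 distinct sites, 22211 were in 1 library, 4348 in 2, 1518 in 3, 710 in 4 and 318 in all 5. A share of 65.8% of the sites at e12.5 and 39.7%, 36.2%, 59.8% and 54.4% at the later stages was found only there. Sites present in both e12.5 and the adult numbered 1137, which is 7.93% of the former and 23.9% of the latter. P7 and the adult shared 1533, which is 14.6% of P7 and 32.2% of the adult. Within a stage the 2 lists of a table overlapped only in part too. At e12.5 the lists had 3263 and 12837 sites and shared 1764, at e15.5 they had 704 and 5095 and shared 362, and at e18.5 they had 2779 and 2831 and shared 763. At e18.5, where the lists were of similar size, 27.5% of the first and 26.95% of the second were shared, so most sites of each list were missing from the other list of the same stage.

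8mers came back more often than shorter sites. Of 8mers 23.7% were in 2 or more libraries, against 21.5% of 7mer-m8, 21.5% of 7mer-A1 and 20.9% of 6mer sites, and 1.09% against 0.547%, 0.540% and 0.471% were in all 5. The miRNAs listed differed between libraries, which limits how often a site can come back. A site with several families also counts as the longest type among them, so a shorter site can change type between libraries. For the 313 families listed in all 5 libraries, pairs of site and family were counted, which is another unit than above for the shorter types. In it 31.2% of 17254 8mers were in 2 or more libraries and 1.84% in all 5. The shorter types of the same families reached 27.3% to 28.7% and 0.926% to 1.21%. The conservation score was higher the more libraries held the site, with a mean of 0.466 in 1 library, 0.530 in 2, 0.562 in 3, 0.634 in 4 and 0.718 in all 5. The same order was seen among sites of broadly conserved families, from 0.544 to 0.755, and among those of the other families, from 0.440 to 0.585. The share of broadly conserved families was 24.3% of the sites in 1 library and 78.0% of those in all 5.

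**Figure D3:**
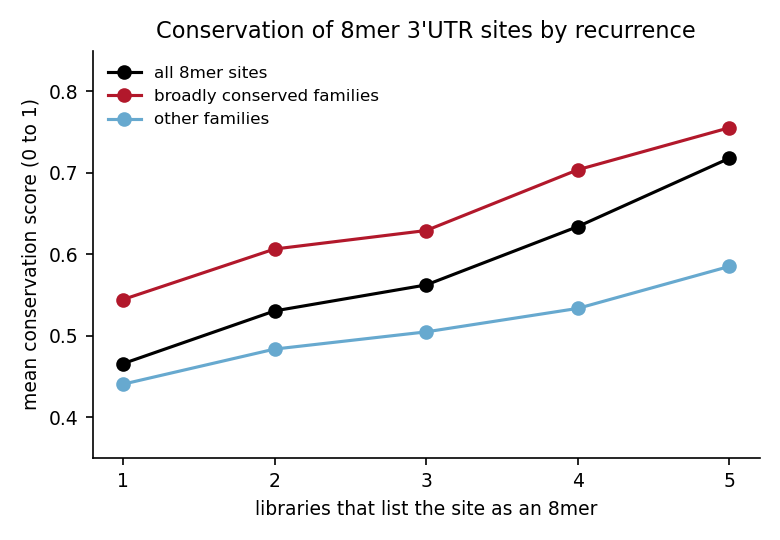
Mean conservation score (0 to 1, the axis does not begin at 0) of distinct 8mer 3′UTR sites against the number of libraries that listed them, for all sites, for broadly conserved miRNA families and for the other families. All 3 lines climb from left to right, from 0.466 to 0.718 for all sites.

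The 318 sites in all 5 libraries lay in 260 genes. The miR-30 family held 40 of them, miR-26 held 17, miR-15/16 held 16, miR-101a-3p and miR-101b-3p held 14 each, miR-25/92 held 13, let-7 and miR-27 held 11 each and miR-20a-5p held 10. miR-122-5p held 8. miR-142a-3p, with the most miRNA reads of all, held 3, and miR-451a held 1. Families with a miRNA among the 20 most read of any library held 46.5% of the 318, and the named sites are from these. The sequences of 10 named sites are printed from GRCm38 (the build called mm10) as the 22 bases that end opposite the first base of the miRNA, read on the strand of the mRNA, with the 8mer in capitals and its coordinates counted from 1. They are shown because their reads over the stages are given below, 8 of them among the sites in all 5 libraries with most reads and the last 2, Suco and Sertad3, among those lowest in the adult.
Gigyf1, miR-30, chr5:137527705-137527712, plus strand: ctgagagtggccaaTGTTTACA
Ccne2, miR-30, chr4:11203348-11203355, plus strand: tataaaagagaactTGTTTACA
Rbms1, let-7, chr2:60751083-60751090, minus strand: acgtgatcagttatCTACCTCA
Mccc1, miR-122-5p, chr3:35989846-35989853, minus strand: cgagaagttcgtggACACTCCA
Bcat2, miR-122-5p, chr7:45589488-45589495, plus strand: ccctcgtggacgttACACTCCA
Lamp2, miR-194-5p, chrX:38421686-38421693, minus strand: aatccacatgtgatCTGTTACA
Ddx5, miR-451a, chr11:106781986-106781993, minus strand: cagggacttaccagAACGGTTA
Itgb1, miR-144-3p, chr8:128732990-128732997, plus strand: tacctttttcacaaATACTGTA
Suco, miR-142a-3p, chr1:161817902-161817909, minus strand: ttttgaagctgcaaACACTACA
Sertad3, miR-25/92, chr7:27477164-27477171, plus strand: ccaggccggaccatGTGCAATA

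Gigyf1, which encodes a partner of translational repressors, led the 15 genes with the highest mean scaled reads among these sites. Since the libraries differ in depth, scaled reads are given here, the cluster reads per 1000000 summed cluster reads of the library. Gigyf1 has a miR-30 site with a score of 1 that lies 2008 bases after the stop codon in a 3′UTR of 2231 bases. Its cluster had 121 scaled reads at e12.5 and 63.3, 215.9, 169 and 34.6 at the later stages. It was highest at e18.5 and lowest in the adult. Ccne2, cyclin E2 of the entry into S phase and a known target of miR-30, had 80.2, 191.2, 109 and 121.9 scaled reads from e12.5 to P7 and 0.844 in the adult. The site lies 257 bases after the stop codon and has a score of 1, and the adult stands alone at the bottom. Itgb3, an integrin chain, had 28.0, 54.8, 137.3, 207 and 20.1 scaled reads at a miR-30 site 56 bases after the stop codon. Rbms1, an RNA-binding protein, had 78.7, 96.1, 88.8, 91.6 and 13.1 scaled reads at a let-7 site with a score of 1. It was even in the first 4 libraries and lowest in the adult, although let-7 took its largest share of the miRNA reads in the adult.

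Among the recurrent sites of miR-122-5p, Mccc1, a subunit of a carboxylase of leucine breakdown, had 11.2, 25.97, 82.8, 268 and 160 scaled reads, from e12.5 to the adult. This site is also annotated to coding sequence, and no 3′UTR of GENCODE vM21 held it. Gpaa1, of the enzyme that attaches GPI anchors, had 12.8, 43.6, 72.5, 220.01 and 33.2 scaled reads, and its site is annotated to coding sequence too. Bcat2, the mitochondrial aminotransferase of branched-chain amino acids, had 15.4, 15.2, 44.9, 88.7 and 27.2 scaled reads at a site with a score of 0.995. P7 was the highest of the 5 libraries at each of the 3 sites.

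Among the 15 genes, 1 had a site of miR-451a and 1 a site of miR-144-3p, and both clusters were lowest in the adult. Ddx5, an RNA helicase, had 147 scaled reads at e12.5 and 201.8, 27.1, 9.52 and 5.10 at the later stages at the only miR-451a site found in all 5 libraries, which is annotated to coding sequence as well. Itgb1, the common beta chain of integrins, had 70.2, 90.6, 54.0, 14.7 and 3.62 scaled reads at a miR-144-3p site with a score of 0.001. Both were highest at e15.5. Lamp2, a lysosomal membrane protein, went the other way with 4.01, 25.8, 32.2, 35.9 and 298 scaled reads at a miR-194-5p site 26 bases after the stop codon. A second 8mer, of miR-669b-5p, was listed in the same adult cluster, of 7423 reads, and shares them. Lars2, Gucd1 and Suclg1 were the most even of the 15, with 38.2 to 129.6 scaled reads at a miR-125 site, 22.1 to 121 at a miR-30 site and 20.9 to 55.2 at a miR-27 site, the last also annotated to coding sequence. Hist1h4b and Ccdc71l are described with the sites that were lowest in the adult.

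**Figure D4:**
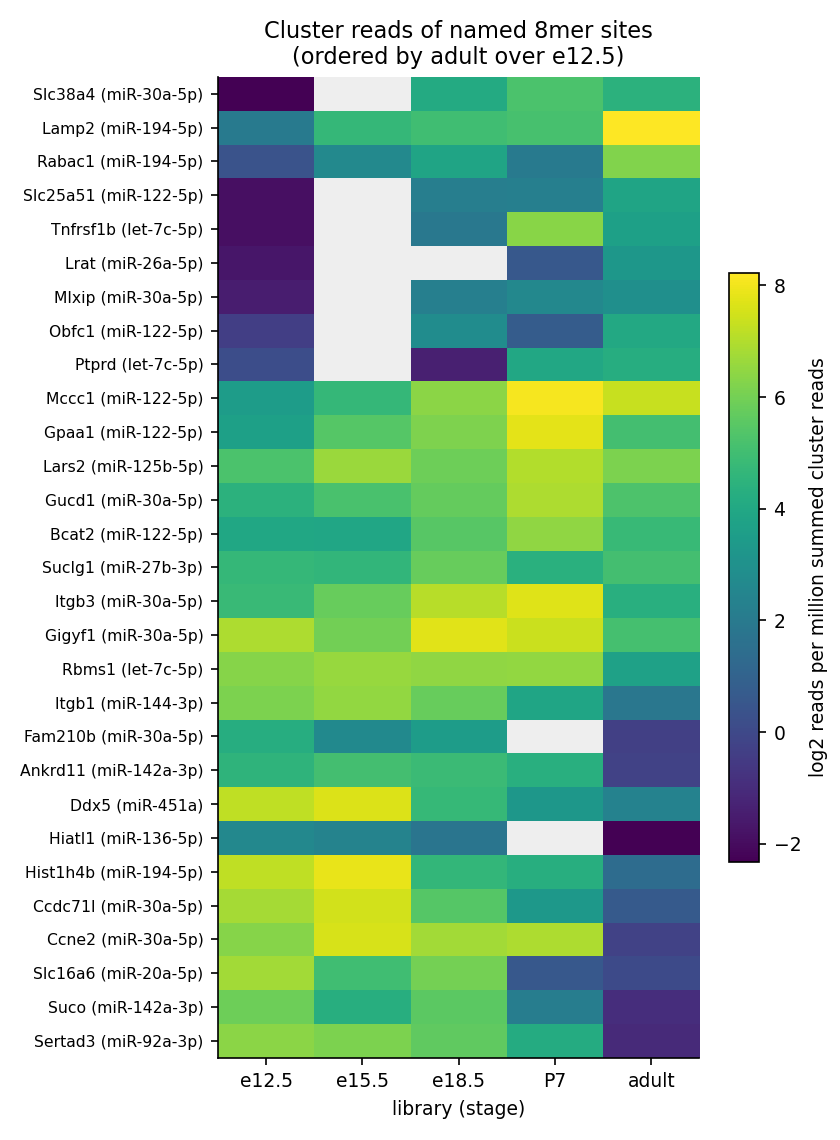
Cluster reads of named 8mer 3′UTR sites, as log2 of reads per 1000000 summed cluster reads (colour), with 1 row per gene and seed family and 1 column per library; grey means not listed. Rows are ordered by the ratio of adult to e12.5, from Slc38a4 at the top with a log2 ratio of 6.79 to Sertad3 at the bottom with -7.43.

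To see which sites differed between the ends of the series, the reads of the adult and the e12.5 library were scaled to the summed cluster reads of each table, 24885228 and 44867326. Of the 1137 8mers listed in both, 15.9% were at least 4-fold higher in the adult and 16.7%, or 190 sites, at least 4-fold lower. Over all 11321 3′UTR sites listed in both, the background was 17.8% higher and 15% lower, so the 8mers as a group were close to it. The median log2 ratio was 0.15 for 8mers and 0.21 for all these sites. The split depended on the scaling and on the lists of e12.5. With the read totals of the study it was 20.8% higher and 13.4% lower, against 22.4% and 11.6% of all sites. With the median ratio set to 0 it was 13.3% and 19.2%, against 15.6% and 17.2%. With the first list of e12.5 alone it was 6.65% and 58.8% of 391, against 4.03% and 64.4%. With 1 library on each side no test of these changes is possible, and the counts describe 2 libraries.

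The seed families differed in this ratio. The median log2 ratio was -3.59 over the 5 shared sites of miR-142a-3p, -1.88 over 18 of miR-20a-5p, -1.37 over 23 of miR-19, -1.23 over 28 of miR-25/92 and -0.61 over 12 of miR-144-3p. It was 1.39 over 13 sites of miR-194-5p and 0.83 over 19 of miR-122-5p. The shares of the miRNAs in the reads went the same way in these 7 families. Other families did not follow this. let-7 was at 0.27 over 29 sites and miR-29 at -0.11 over 19, close to the median of all sites, while their miRNA shares were 2.45% and 22.4%, and 0.0858% and 2.63%. The miR-15/16 family was at -0.44 over 37 sites, with 4.25% of all miRNA reads at e12.5 and 14.9% in the adult. miR-30 was at 0.26 over 86 sites. miR-101b-3p was at -1.0 over 25 sites, with 0.101% of all miRNA reads at e12.5 and 0.617% in the adult. The level of the mRNA also enters each ratio and was not measured here.

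**Figure D5:**
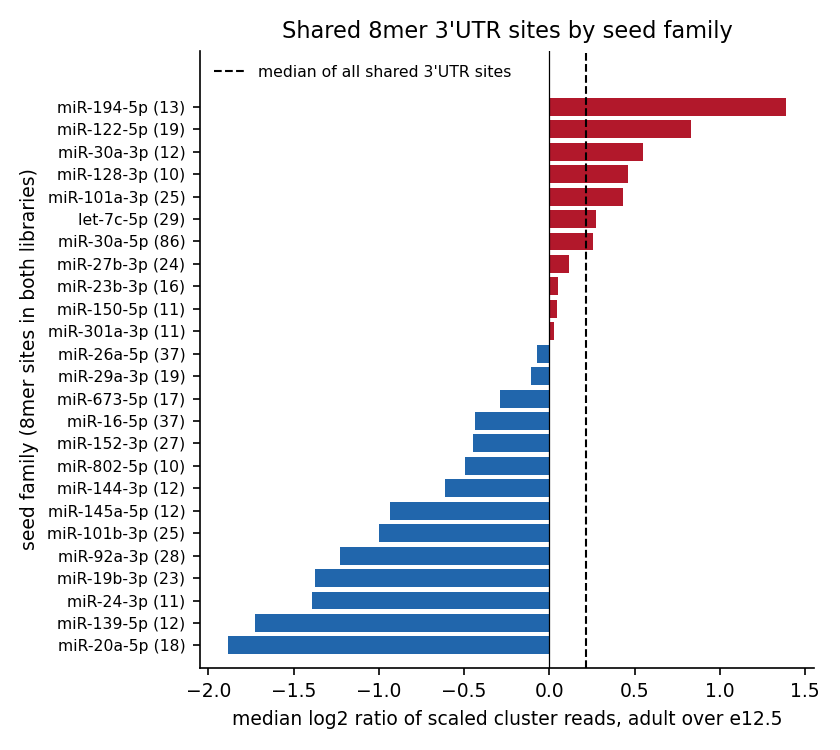
Median log2 ratio of scaled cluster reads, adult over e12.5, of the 8mer 3′UTR sites listed as 8mers in both libraries, for seed families with 10 or more such sites (number in parentheses). The dashed line is the median of all shared 3′UTR sites, 0.21. miR-194-5p and miR-122-5p lie at the top with 1.39 and 0.83, and miR-20a-5p at the bottom with -1.88.

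Markers of cell types differed between the libraries in their number of clusters of any region and seed type, beside 231477 clusters in all at e12.5 and 86624, 86419, 124781 and 81194 at the later stages. The counts below are not scaled to these totals, so fewer clusters in the adult need not mean a smaller share of the library's clusters. Of erythroid markers, Slc4a1, the anion exchanger of red cells, had 96 clusters at e12.5 and 76, 76, 59 and 1 at the later stages. Of the 6 markers, 4 had clusters in the first 4 libraries and 3 in the adult, and no cluster was listed under the symbols Hbb-b1 and Epb42. A beta globin was listed as Hbb-bs, with 43399 reads at e12.5, so a count of 0 under a symbol does not show that an mRNA was absent. Of the 8 hepatocyte markers, 2 had more clusters in the adult than at e12.5, Cps1 with 4, 15, 88, 71 and 81 in order of age and Apob with 1.49 times as many in the adult. The other 6 had fewer in the adult, among them Alb with 42, 41, 49, 21 and 27 and the fetal Afp with 50, 45, 53, 24 and 0. The endothelial marker Stab2 had 11, 3, 7, 39 and 40, and the other 3 of its list were also higher in P7 and the adult than in any embryonic library. Of 5 leukocyte markers, Csf1r had 7, 3, 9, 19 and 23 clusters, Cd74 had 0, 0, 1, 3 and 14 and Ptprc 4, 3, 4, 15 and 9, while Mpo had 15, 8, 13, 10 and 0 and Lyz2 had 6 at both ends. The 4 stellate markers had fewer in the adult than at e12.5, among them Col1a1 with 23, 3, 12, 28 and 7 and Reln with 58, 14, 23, 62 and 35. Of 3 cholangiocyte markers, Sox9 had 0 to 6 clusters and the other 2 at most 1. The part of these differences in the ratios above was not tested.

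The 10 genes highest in the adult relative to e12.5, among sites of the leading families with at least 20 reads in 1 of the libraries, were led by Slc38a4, an amino acid transporter of hepatocytes. Its miR-30 site had 9 reads at e12.5, or 0.201 scaled reads, and 17.5, 37.2 and 22.2 scaled reads in the last 3 libraries and was not listed at e15.5, a log2 ratio of 6.79. Lamp2 followed with 6.22, and Rabac1 with 5.86 at a miR-194-5p site of 1.29, 6.17, 14.3, 4.0 and 75.1 scaled reads. Next were Slc25a51 at a miR-122-5p site (0.267 scaled reads at e12.5 and 14.3 in the adult) and Tnfrsf1b, a receptor of tumour necrosis factor, at a let-7 site (0.267 and 12.7, with 81.7 at P7). Lrat, which makes retinyl esters in stellate cells, had 0.312 and 9.52 scaled reads at a miR-26 site. Mlxip, Obfc1 and Ptprd, at the end of the list, had log2 ratios of 4.44, 4.39 and 4.06. The e12.5 reads behind the 10 ratios ran from 9 at Slc38a4 to 180 at Lamp2, with 12 each at Slc25a51 and Tnfrsf1b. The list held 2 sites each of miR-30, miR-194-5p, miR-122-5p and let-7. The conservation score ran from 0.001 at Obfc1 to 1 at Tnfrsf1b and Ptprd.

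The 10 genes lowest in the adult were led by Sertad3, a regulator of transcription, whose miR-25/92 site had 83.3 scaled reads at e12.5 and 71.2, 49.7, 18.2 and 0.482 at the later stages. Suco had 59.9, 19.6, 47.4, 4.49 and 0.522 at a miR-142a-3p site. Slc16a6, of the monocarboxylate transporter family, had 108 scaled reads at e12.5 and 31.4, 64.0, 1.52 and 1.04 later, at a miR-20a-5p site. These 3 sites all had a score of 1 and were highest at e12.5. Ccne2 was next with a log2 ratio of -6.57, then Ccdc71l with -6.13 at another miR-30 site, of 113, 179, 43.3, 9.76 and 1.61 scaled reads. Hist1h4b, a histone H4 gene, had 147, 232, 25.4, 19.5 and 2.65 scaled reads at a miR-194-5p site, and like Ccdc71l it was highest at e15.5. The share of miR-194-5p itself in the miRNA reads was higher in the adult than at e12.5. Hiatl1, Ddx5, Ankrd11 and Fam210b followed with log2 ratios between -4.90 and -4.57. The adult reads behind these 10 ratios ran from 5 at Hiatl1, the lowest number listed, to 127 at Ddx5, with 12 at Sertad3 and 13 at Suco. Of these 10 sites, 3 belonged to miR-30, a family whose shared sites as a whole had a median near that of all sites.

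Sites of the leading families found in only 1 library were ranked by their reads. The 3 genes with most reads were Mis12, Zfp36l2 and BC037034 at e12.5 with 8.29 to 8.85 scaled reads and Braf, Tnrc6b and Chac1 at e15.5 with 10.8 to 14.4. At e18.5 they were Lrrk2, Crebrf and Mbd6 with 10.2 to 12.9. At P7 they were Lifr, Cblb and Ets1 with 5.52 to 6.18. In the adult they were Mal2 at a miR-223-3p site, with 19.97 scaled reads, and 2 genes with miR-29 sites. Of these Mat1a, the methionine adenosyltransferase of adult liver, had 8.12 and Col4a1, a collagen of basement membranes, 6.39 on the same scale. Their miRNA, miR-29, had 0.0858% of all miRNA reads at e12.5 and 2.63% in the adult.

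The sites were spread over 7523 genes, of which 2382 had 1 site and 633 had 10 or more. Tnrc6b, a core protein of the silencing complex itself, had the most with 45 sites of 44 families, in a 3′UTR of 11609 bases. It had 28 at e12.5 and 11, 9, 19 and 7 at the later stages. Lrrc58 had 39, Ank1, the ankyrin of red cells, 36, Flna 35 and Slc25a37, the mitochondrial iron importer of red cell precursors, 35. Arhgef12, Arrb1, Fam46c and Gm20716 had 33 each and Cpeb4 32. Ank1 had 31 sites at e12.5 and 0 in the adult, Slc25a37 30 and 1, Fam46c 25 and 1, and Arrb1 29 and 0. Neither the length of the 3′UTR, the depth of the library nor the level of the mRNA was corrected for.

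Several 8mers of the same family in the same gene were rare. Of 28901 pairs of gene and family, 296 (1.02%) had 2 or more distinct sites, and the spacing between neighbours was under 60 bases in 26 of 317 cases. Among the leading families Gna11 had 3 sites of miR-142a-3p and Zfp120 had 3 of miR-144-3p. Btg2, which recruits the deadenylase to mRNAs, had 2 sites of miR-25/92.

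Within the 3′UTR, 28508 of the 29105 sites could be placed on a transcript of GENCODE vM21. The first 10% of the 3′UTR after the stop codon held 15.3% of them and the last 10% before the end held 7.71%. The shorter seed types had nearly the same course, with 15.6% to 15.7% and 6.95% to 7.49%. The median site lay 714 bases after the stop codon in a 3′UTR of 2199 bases, and 1.81% lay within 15 bases of the stop codon, a zone that ribosomes clear, against 1.97% to 2.14% of the shorter types.

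Gene groups were examined by how many of their members had an 8mer 3′UTR site of any family, among those with a 3′UTR site of any seed type. Over all genes this share was 59.8% at e12.5 and 47.2%, 45.4%, 57% and 45.7% at the later stages. Of 14 genes of the miRNA machinery, 10 of 12 with any site had an 8mer at e12.5, and 7 of 10, 8 of 11, 7 of 10 and 8 of 10 at the later stages. Tnrc6a had 18 distinct sites, Ago2 31 and Ago3 11, with Tnrc6a, Tnrc6b and Tnrc6c each holding sites of miR-26 and miR-30, while Drosha, Xpo5 and Lin28a had none. Of 15 genes of mRNA decay, the counts were 13 of 15, 10 of 14, 8 of 12, 12 of 13 and 8 of 11 in order of age. Btg2 had 28 distinct sites, 11 of them in 3 or more libraries.

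Of 22 cell cycle genes, 16 of 20 had an 8mer at e12.5 and 12 of 21, 10 of 18, 12 of 19 and 5 of 10 at the later stages, so the adult had fewer members with a site of any type and a share of 8mers near that of all genes. Ccna2, cyclin A2, had 16, 9, 7, 5 and 1 sites in these libraries, and E2f2, a transcription factor of proliferating cells, had 15, 5, 7, 2 and 0. Cdkn1a, the inhibitor p21, had 3 sites, all in the adult. Of 15 hepatocyte transcription factors, 9 of 10, 4 of 11, 5 of 12, 7 of 13 and 5 of 11 had an 8mer, above the share of all genes at e12.5 and near or below it later. Cebpa, a factor of mature hepatocytes, had 4, 1, 8, 6 and 6 sites. Of 19 genes of lipid and glucose metabolism, 12 of 16, 10 of 15, 12 of 16, 15 of 17 and 13 of 16 had one. The length of the 3′UTR was not matched in these shares, and nothing particular to a group was tested. G6pc, the phosphatase that releases glucose from liver, had 0, 0, 3, 11 and 8 sites, and Scd1, a fatty acid desaturase, had 0, 2, 0, 0 and 10.

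Of 89 pairs of miRNA family and target known from the literature, 29 had an 8mer 3′UTR site of that family in at least 1 library, 23 only a shorter site and 37 none. The count by library was 20 at e12.5 and 13, 14, 14 and 8 at the later stages. Over all genes, those with an 8mer 3′UTR site of any family numbered 5032 at e12.5 and 2802, 2712, 4623 and 2631 later. Whether the known pairs differ from other genes was not tested. Only Ccne2 with miR-30 and Tgfbr1 with let-7 were found in all 5, the latter with 0.780, 1.51, 8.46, 2.24 and 1.21 scaled reads. Igf2bp3, a fetal RNA-binding protein and let-7 target, had 3.14, 13.9, 8.61 and 1.45 scaled reads from e12.5 to P7 and was not listed in the adult, and Arid3a had 0.357, 2.97, 0.769 and 2.24 scaled reads and was not listed there either. Lin28b, the inhibitor of let-7 maturation, had 0.758 scaled reads at e12.5 and 0.461 at e18.5. These 3 had no let-7 8mer in the library with the most let-7.

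Of 13 miR-122 targets on this list, 6 had an 8mer site. Aldoa, an aldolase long used to read the activity of miR-122, had 7.51 scaled reads at e12.5 and 11.3, 8.61 and 4.18 in the last 3 libraries, and Gys1, glycogen synthase, had 3.15 scaled reads at e15.5 and 0.603 in the adult. P4ha1 had 1.45 at P7 and 0.482 in the adult, and Ccng1, Adam10 and Slc7a1 had no site in the adult. Cdkn1b, the inhibitor p27, had 10.1, 6.90 and 13.9 scaled reads at a miR-221 site in the embryonic libraries and none later. Itga5 with miR-25/92 had 6.73 scaled reads at e12.5 and 0.723 to 1.92 in 3 other libraries, and Mcl1, a survival protein, had 1.43, 2.54, 0.788 and 4.02 scaled reads at a miR-29 site in all libraries but that of e18.5. The tables hold no mRNA levels, so a scarce mRNA and an unbound one cannot be told apart.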

How the data were processed

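Ago HITS-CLIP libraries of mouse liver at 5 stages were analysed from tables of miRNA-target interactions that the authors deposited. Per the study's methods, they used the FASTX-Toolkit, Bowtie and miRBase with the mm10 build, and the submitters' processing notes name mm9 too; versions of the FASTX-Toolkit and Bowtie are not given in the sources used here. The deposited tables hold the reads of each cluster (a signal), and a conservation score and a duplex free energy, also used as a score, whose programs are not stated. Each interaction name carries a number, read here as how often the miRNA was sequenced. Ago reads are not molecules, and intervals cover counting error only. Columns of samples of other series numbered 0.

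Entries with the same position, strand and seed were joined to 1 site. Its reads were the highest of its entries within a list, added over the lists of a stage. Sequence was read from GRCm38, and 3′UTR positions from GENCODE vM21. Seed types were compared as differences within libraries with an exact two-sided sign permutation test over 5 libraries and Benjamini-Hochberg adjustment. No test was made between stages, with 1 library each. Total cluster reads per library were 13008703 to 44867326. Python 3.11.15, pandas 2.3.3, numpy 2.4.6, pysam 0.24.0 and matplotlib 3.10.9 were used, and the steps were tested on simulated data.

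Named genes had sites of seed families with a miRNA among the 20 most read of any library. They were the 15 genes with the highest mean log2 scaled reads among sites in all 5 libraries, the 10 with the largest and the 10 with the smallest ratio of adult to e12.5 among sites with at least 20 reads in 1 of them, and the 3 with most reads among sites of each library alone. The 10 genes with most distinct sites, every gene of a list of known pairs, and the 12 seed families with most sites and the 12 with most miRNA reads could be named as well. The examples from the gene groups, cell markers and seed families outside the 12 leading ones, and Vmp1, Hbb-bs, Gna11 and Zfp120, were picked after their values were seen. Some items are not reported here. The members and lists were chosen with earlier results of these data known. Alternatives changed the read minimum, the region, the miRNAs, the lists, the scaling and the fold.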

Additional observations from a re-analysis of the deposited data

How the results depend on the processing

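The mean differences in conservation, log2 reads and A and U content kept their sign under every alternative run for them, and those in conservation did so in each library. Single libraries turned sign for log2 reads against 7mer-A1 within seed families (mean 0.01, p = 0.1875, exact permutation test) and with the first lists alone, where 7mer-m8, 7mer-A1 and 6mers gave 0.05 (p = 0.125), 0.02 (p = 0.1875) and 0.04 (p = 0.25), and for A and U content against 7mer-A1 within families (0.388, p = 0.125). In the same order of types, log2 reads were 0.05, 0.03 and 0.05 with at least 10 reads, 0.21, 0.13 and 0.23 for the 100 most read miRNAs and 0.17, 0.12 and 0.17 over every listed entry. Conservation was 0.106, 0.108 and 0.160 for the 100 most read miRNAs and 0.110, 0.0909 and 0.146 over every listed entry. Leaving out 1 library at a time gave 0.0656 to 0.0683 for the conservation of 8mers against 7mer-m8, 0.0423 to 0.0474 against 7mer-A1 and 0.0807 to 0.0845 against 6mers. The free energy against 7mer-m8 turned from 0.362 to -0.0531 within seed families, and was 0.260 (p = 0.125, exact permutation test) for the 100 most read miRNAs, and the cause was not tested. No paired analysis was possible because each stage is 1 library, so nothing pairs samples between stages; the seed types were compared within libraries.

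The share of 8mers among 3′UTR sites, in order of age, was 8.80%, 10.2%, 11.2%, 9.19% and 9.97% over every listed entry and 11.8%, 13.0%, 15%, 13.4% and 13.2% for the 100 most read miRNAs. Among coding sites it was 8.23%, 8.33%, 7.91% and 7.47% from e15.5 on. It was 8.52% at P7 with at least 10 reads and 8.48% in the adult with 3′UTR as the only region. The share in 2 or more libraries was 29.8% by cluster overlap, 22.6% with at least 10 reads, 17.8% with the first lists alone, which left 79 sites in all 5, and 31.2% for families listed in all 5, an alternative chosen after seeing the data. Of the shared sites, 30.6% were higher and 30.9% lower in the adult at 2-fold, 6.86% and 8.62% at 8-fold, 13.3% and 19.2% with the median ratio set to 0, 20.8% and 13.4% with the study's read totals, and 6.65% and 58.8% with the first e12.5 list. The second e12.5 list gave 12.6% higher. The 12 families with most sites held 12.9%, 22.5%, 23.1% and 11.97% from e12.5 to P7 when weighted by reads, where sites near miRNA genes held 16.9% of the reads at e12.5 and 34.2% at P7. With 3′UTR as the only region they held 10.9% at e12.5 and 19.2%, 13.7% and 17.6% in the last 3 libraries, and 13.4% at P7 with at least 10 reads. The causes of these shifts were not tested.

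With 1 table per stage the spread between livers cannot be taken from these data, and clusters begin at 5 reads, so a site below that is missing whatever its level.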
